A study of Mus musculus with 12 samples.

Results

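Wnt target and Wnt inhibitor genes were followed across 3 histone marks in mouse intestinal organoids. The genes were Lef1, Tcf7, Sp5, Myc, Axin2, Nkd1, Notum, Sfrp5, Dkk3 and Wif1, 10 of the 21900 protein-coding genes of the annotation. They were chosen by name, with earlier results of these data known, so shares set beside all peaks or genes only describe the set. Every peak that overlapped a gene's RefSeq span (mm10), extended by 1000 bp on each side, was read in each library. With the peak caller SEACR these were 17 of 58548 tested H3K4me3 peaks, 11 of 62547 H3K27ac peaks and 31 of 105301 H3K27me3 peaks. With the caller MACS2, which drew shorter peaks, they were 32 of 36552 for H3K4me3, 0 of 9817 for H3K27ac and 4 of 1828 for H3K27me3.

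Canonical Wnt signalling keeps β-catenin from being degraded, so that it enters the nucleus and acts with transcription factors of the TCF/LEF family. In the intestinal crypt it maintains the stem cells and Paneth cells, and many of the genes it turns on encode its own inhibitors. H3K4me3 marks active and poised promoters, H3K27ac marks active promoters and enhancers, and H3K27me3 is laid down by Polycomb repressive complex 2 at silent or developmentally controlled genes.

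The assay was CUT&RUN: a nuclease tethered by an antibody cuts out the DNA beside a histone mark, and that DNA is sequenced. Organoids from isolated crypts were kept for 6 days with 25 µM arachidonic acid (AA), a polyunsaturated fatty acid from which cells make prostaglandins, or with vehicle. There were 2 AA and 2 vehicle libraries for each of the 3 marks, 12 in all. Both groups grew in Matrigel in medium with EGF, Noggin, R-spondin at 62.5 ng/ml, Y-27632, N-acetyl-L-cysteine, B27, N2 and CHIR-99021 at 5 µM. R-spondin and CHIR-99021, a GSK3 inhibitor, both raise Wnt signalling, so AA was compared with vehicle while the pathway was held active from outside in both groups. The series text also speaks of organoids that lack a prostaglandin receptor and of a PGE2 arm. The labels of the libraries used here name neither, and they give no genotype. They also do not say that libraries came from separate cultures, so the p-values measure the spread between libraries, which may be technical.

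The median SEACR peak had a raw coverage of 1.37 and 1.46 in the AA libraries of H3K4me3, against 3.38 and 2.35 in the vehicle libraries. For the other marks it lay between 1.19 and 2.76. Libraries of 1 group correlated over all peaks (Spearman) at 0.72 in AA and 0.81 in vehicle for H3K4me3, at 0.65 and 0.51 for H3K27ac, and at 0.29 and 0.19 for H3K27me3. Between an AA and a vehicle library the values ran from 0.64 to 0.82, from 0.54 to 0.59 and from 0.12 to 0.23. In each mark the highest of these was above the lower within-group value, so libraries did not always group by treatment. AA library 2 of H3K4me3 stood apart, at 157.7 on the first principal component, where the other libraries lay between -74.05 and -13.48. All 10 epithelial marker genes had H3K4me3 and H3K27ac peaks at their starts. Of 9 fibroblast markers, 3 had an H3K4me3 start peak and 0 an H3K27ac start peak. Of 7 blood cell markers 1 had each, and of 6 endothelial and glial markers 2 had H3K4me3 and 0 had H3K27ac. In bulk organoids, fewer cells that carry a mark and less mark per cell cannot be told apart.

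Promoter windows of 250 bases before the start are shown for 3 genes that differ in what the marks did: Sp5, whose window holds TCF/LEF letters, and Lef1 and Sfrp5, whose H3K4me3 fell at a window without them. The sequences are from RefSeq (GRCm38.p6) and run 5′ to 3′ on the gene's strand. They lie at chr2:70474673-70474922 (plus strand, Sp5), chr3:131110047-131110296 (plus strand, Lef1) and chr19:42202253-42202502 (minus strand, Sfrp5). Capitals mark matches to the TCF/LEF family letters, searched on both strands as CTTTGAA and CTTTGAT, and likewise as CTTTGTA and CTTTGTT.
Sp5: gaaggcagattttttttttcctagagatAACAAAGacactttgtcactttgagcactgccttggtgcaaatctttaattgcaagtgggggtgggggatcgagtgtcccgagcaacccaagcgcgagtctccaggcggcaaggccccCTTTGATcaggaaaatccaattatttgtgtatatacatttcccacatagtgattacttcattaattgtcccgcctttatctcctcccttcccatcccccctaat
Lef1: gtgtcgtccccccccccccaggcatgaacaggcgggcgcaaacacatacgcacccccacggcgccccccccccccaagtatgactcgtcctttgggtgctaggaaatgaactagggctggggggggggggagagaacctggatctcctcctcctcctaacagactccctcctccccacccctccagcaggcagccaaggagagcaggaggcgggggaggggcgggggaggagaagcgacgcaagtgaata
Sfrp5: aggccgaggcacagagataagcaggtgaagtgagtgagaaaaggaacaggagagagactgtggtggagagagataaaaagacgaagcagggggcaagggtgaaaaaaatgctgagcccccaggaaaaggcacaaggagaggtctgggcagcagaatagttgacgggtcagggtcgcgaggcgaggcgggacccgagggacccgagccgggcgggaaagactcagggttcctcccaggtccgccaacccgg

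The Sp5 window held AACAAAG 222 bases and CTTTGAT 104 bases before the start. Of the 11 windows listed for 7 of the 10 genes, the only other match was TACAAAG, 147 bases before the Lef1 start at position 131156294, which lies inside the gene. Across the table, 4874 of 32851 windows (14.84%) held at least 1 match. Notum, Dkk3 and Myc had no entry. The windows of Axin2, Tcf7, Wif1 and Nkd1 also held no match, and no SEACR H3K4me3 peak of these genes was called. A link between matches and changes of the marks was not tested. A match is a description of letters and not a binding site.

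The 3 marks were spread unevenly over these genes. A peak within 1000 bp of the annotated start was found for H3K4me3 at 8 of the 10 genes (80%, against 65.16% of all protein-coding genes). Notum, Myc and Dkk3 have no listed start, so for them, as for every gene without one, a peak within 1000 bp of either end of the span was counted. The corresponding counts were 4 of 10 for H3K27ac (40%, against 52.43%) and 6 of 10 for H3K27me3 (60%, against 30.99%). Lef1, Notum, Sfrp5, Sp5 and Wif1 had both H3K4me3 and H3K27me3 there (50%, against 21.17% of all genes). Nkd1 had a peak of each of these marks over the 5′ end of its RefSeq span. They lay 3681 and 3798 bp from its listed start and were not counted. Among the 7 genes with a listed start, H3K4me3 was found at 6 (85.71%, against 65.31% of 17492 genes with one), H3K27ac at 3 (42.86%, against 52.92%) and H3K27me3 at 4 (57.14%, against 29.57%), each of the 4 with H3K4me3 as well. Sp5 and Wif1 carried all 3 marks at the start. Tcf7 had peaks of H3K4me3 only, Dkk3 of H3K27me3 only, and Myc and Axin2 had H3K4me3 and H3K27ac at the start with no H3K27me3 there. Lef1, Nkd1, Notum, Tcf7 and Dkk3 had no H3K27ac peak in their extended spans. Genes were not counted as independent draws and no test was made of these shares.

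In SEACR peaks, H3K4me3 was lower in AA than in vehicle at Lef1, Notum and Sfrp5 and passed the test at no other of these genes; in MACS2 peaks it passed at Myc, higher, and at Axin2, lower, as given with those genes. The test was limma on log2 of the score plus a small constant, with p adjusted over all peaks of the mark (Benjamini-Hochberg, threshold 0.05). Of the 17 peaks, at 9 genes, 3 were called lower, where 1.38% of all H3K4me3 peaks were, and 0 were called higher, where 1.54% were. Both AA libraries lay below both vehicle libraries at 9 peaks (30.5% of all peaks), above them at 1 (18.3%), and 7 overlapped. The median log2 change was -0.47, against -0.19 over all peaks. At an unadjusted p under 0.05 in limma there were 7 of the 17 peaks, and 9469 of all 58548.

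**Figure D1:**
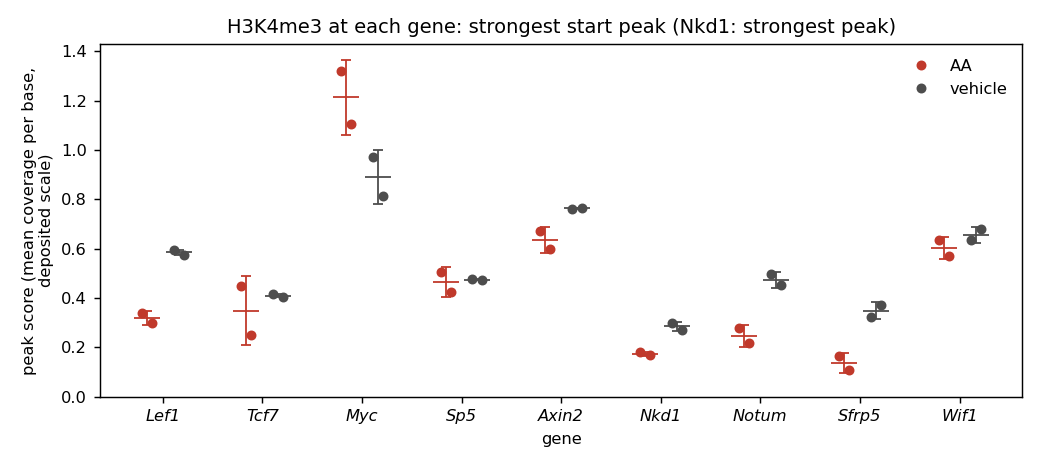
H3K4me3 score (mean coverage per base on the deposited scale) at the strongest start peak of 9 genes, or at the strongest peak for Nkd1; points are libraries, and bars the mean ± SD of 2 AA (red) and 2 vehicle (grey) libraries. Lef1, Notum and Sfrp5 were lower in both AA libraries, at 0.109 to 0.339, against 0.325 to 0.593 in vehicle; Myc was the 1 gene with both AA libraries above both vehicle libraries.

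Lef1 encodes a transcription factor that binds β-catenin and is itself switched on by Wnt. Its H3K4me3 start peak (chr3:131108890-131113049) scored 0.339 and 0.3 in the AA libraries, against 0.593 and 0.577 in the vehicle libraries. Both AA libraries were well below both vehicle libraries, and the means were 0.320 ± 0.0277 in AA and 0.585 ± 0.0117 in vehicle (SD, n = 2 each). The log2 change was -0.83 ± 0.24 (SE, limma adjusted p = 0.0272). Tcf7 encodes TCF1, the other factor of that family in the set. Its start peak (chr11:52280736-52285097) scored 0.449 and 0.250 in AA, against 0.415 and 0.406 in vehicle. The AA libraries lay on either side of the vehicle libraries, and the change was -0.27 ± 0.26 (SE, limma adjusted p = 0.621). A 651 bp Tcf7 peak 28171 bp from the start scored 0.00803 and 0.0599 in AA, against 0.124 and 0.213 in vehicle, and did not pass (-1.82 ± 0.81, SE, limma adjusted p = 0.222).

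Among the target genes, Sp5 encodes a zinc-finger transcription factor that is a direct Wnt target. Its 9491 bp H3K4me3 peak (chr2:70470267-70479757) covers the whole gene. It scored 0.507 and 0.423 in AA, against 0.478 and 0.473 in vehicle, so the groups overlapped (-0.03 ± 0.23, SE, limma adjusted p = 0.946). Myc, a driver of growth and division and a Wnt target in crypts, had the highest H3K4me3 of the set (chr15:61982959-61992332). It scored 1.32 and 1.11 in AA, against 0.970 and 0.815 in vehicle. Both AA libraries were above both vehicle libraries, but the change of 0.43 ± 0.14 did not pass (SE, limma adjusted p = 0.0686).

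Of the 6 shorter MACS2 peaks at Myc, 2 were called higher, both of them outside the gene span, within the 1000 bp extension at its lower-coordinate end. MACS2 peaks called higher made up 5.22% of all H3K4me3 peaks of that caller, and lower 1.09%. At the stronger of the pair (chr15:61984839-61985316) the scores were 3.13 and 3.12 in AA, against 1.92 and 1.65 in vehicle (0.76 ± 0.14, SE, limma adjusted p = 0.00240). Sorted into 10 equal classes by level, both peaks were in class 10, the strongest, in which 33.3% of MACS2 peaks were called higher. With 1 length-weighted value per gene, Myc passed (0.41 ± 0.13, SE, limma adjusted p = 0.0217), among 8.52% of genes called higher. For Myc this value is its 1 SEACR peak, so it is not separate support. Centring each library on its median made the SEACR peak a call (0.65, limma adjusted p = 0.00052). After centring, 5557 of all 58548 H3K4me3 peaks were called higher. The Myc SEACR peak was in class 10 of its caller, whose median change was 0.28 before centring.

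Axin2 and Nkd1 encode intracellular feedback inhibitors: Axin2 is a scaffold of the complex that degrades β-catenin, and Nkd1 binds Dishevelled. The Axin2 start lay under an H3K4me3 peak of 18385 bp (chr11:108919128-108937512). It scored 0.674 and 0.599 in AA, against 0.763 and 0.764 in vehicle, with the AA libraries lower (-0.26 ± 0.18, SE, limma adjusted p = 0.494). A 161 bp MACS2 peak 13631 bp from its start was called lower, at 0.408 and 0.126 in AA, against 1.21 and 0.727 in vehicle (-1.44 ± 0.37, SE, limma adjusted p = 0.0215). The other 6 Axin2 MACS2 peaks did not pass. Of these, 2 near the start had both AA libraries above both vehicle libraries. The first, 1487 bp from the start, scored 2.64 and 1.57 in AA, against 1.03 and 1.41 in vehicle (0.69 ± 0.21, SE, limma adjusted p = 0.0583). The other, 3033 bp from it, scored 2.33 and 2.51 in AA, against 1.99 and 1.44 in vehicle (0.47 ± 0.16, SE, limma adjusted p = 0.0718). The MACS2 changes within Axin2 thus differed in sign. The Nkd1 peak (chr8:88519947-88523952) lies over the lower end of the RefSeq span, which is the 5′ end of this plus-strand gene. It is 3681 bp from the start in the promoter table. It scored 0.180 and 0.168 in AA, against 0.298 and 0.272 in vehicle. Both AA libraries were lower, and the change of -0.64 ± 0.34 did not pass (SE, limma adjusted p = 0.337).

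The secreted inhibitors differed among themselves. Notum encodes an enzyme that strips the lipid from Wnt proteins. Its H3K4me3 peak (chr11:120658472-120661734), at the higher-coordinate end of the gene span, scored 0.278 and 0.216 in AA, against 0.497 and 0.452 in vehicle. The groups did not overlap, with means of 0.247 ± 0.0438 in AA and 0.475 ± 0.0320 in vehicle (SD, n = 2 each), and the change was -0.88 ± 0.27 (SE, limma adjusted p = 0.0427). Sfrp5 encodes a secreted protein with a Frizzled-like Wnt-binding domain. Its start peak (chr19:42198807-42203339) scored 0.166 and 0.109 in AA, against 0.325 and 0.374 in vehicle. It had the largest fall of the start peaks, at -1.22 ± 0.34 (SE, limma adjusted p = 0.0236), with means of 0.138 ± 0.0405 in AA and 0.349 ± 0.0346 in vehicle (SD, n = 2 each).

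Wif1, whose product binds Wnt proteins outside the cell, had a start peak (chr10:121032898-121035485) with nearly touching groups, at 0.634 and 0.572 in AA, against 0.634 and 0.679 in vehicle (-0.12 ± 0.19, SE, limma adjusted p = 0.769). Inside the gene, 4 further Wif1 peaks had log2 changes between -1.01 and -0.17, and none passed. The lowest adjusted p of these in limma was 0.0657, at a peak 54917 bp from the start. Dkk3, a member of the Dickkopf family whose effect on Wnt signalling depends on the cell, had no H3K4me3 peak with either caller.

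Among SEACR peaks sorted into 10 such classes, Sfrp5 was in class 7, Notum in class 8 and Lef1 in class 9 for H3K4me3, where 3.79%, 4.99% and 2.56% of peaks were called lower. Raw coverage at Notum was 2.55 and 2.13 in AA, against 9.68 and 5.93 in vehicle, at Lef1 3.11 and 2.95 against 11.55 and 7.56, and at Sfrp5 1.53 and 1.08 against 6.33 and 4.90. The part of depth in these results was not tested. With 1 value per gene, Notum (-0.76), Lef1 (-0.70) and Sfrp5 (-0.82) were called lower, among 2.69% of genes. These values hold the same start peaks, alone at Notum and with 1 other peak at Lef1 and Sfrp5, so they are not separate support. The calls ended in limma without vehicle library 1 (adjusted p = 0.839) and without vehicle library 2 (adjusted p = 0.884). Without AA library 2, which stood apart, the changes were -0.74 at Lef1, -0.72 at Notum, -0.96 at Sfrp5 and 0.56 at Myc. Without AA library 1 they were -0.91, -1.05, -1.475 and 0.31, with -0.34 at Axin2 and -0.66 at Tcf7. A fit that leaves 1 library in a group takes its spread from the other group alone. Passing in such a fit was therefore not read as support. Centring each library on its median, which moves all H3K4me3 changes up by 0.21, left Sfrp5 called (-1.01, limma adjusted p = 0.0365), while Notum then had -0.67 (adjusted p = 0.0958) and Lef1 -0.61 (adjusted p = 0.0774). None of the 3 passed at their MACS2 start peaks, where the changes were -0.68, -0.78 and -0.92 for Lef1, Notum and Sfrp5.

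H3K27me3 was higher in AA at Notum, Sfrp5 and Sp5. Of 31 peaks at 8 genes, 3 were called higher, where 0.498% of all H3K27me3 peaks were, and 0 lower, where 0.0475% were. Both AA libraries lay above both vehicle libraries at 7 peaks (26.3% of all peaks), below them at 4 (13.4%), and 20 overlapped. The median change of 0.07 was near the 0.12 of all peaks. The calls were thus 3 single peaks among 31.

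**Figure D2:**
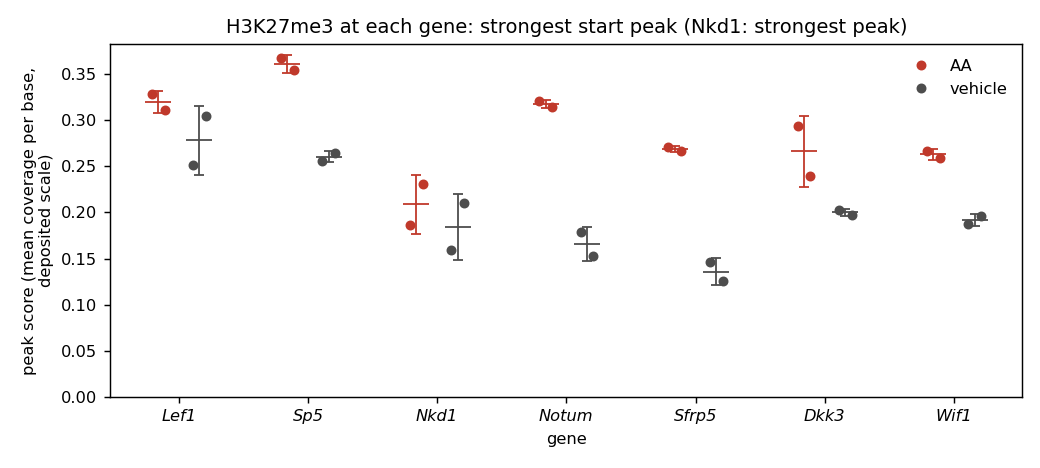
H3K27me3 score (mean coverage per base on the deposited scale) at the strongest start peak of 7 genes, or at the strongest peak for Nkd1; points are libraries, and bars the mean ± SD of 2 AA (red) and 2 vehicle (grey) libraries. Notum scored 0.321 and 0.314 in AA, against 0.179 and 0.153 in vehicle; the groups overlapped at Nkd1.

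At Notum the H3K27me3 peak (chr11:120658477-120664538) covered 99.85% of the H3K4me3 peak. It scored 0.321 and 0.314 in AA, against 0.179 and 0.153 in vehicle. The AA libraries were close together and far above vehicle, with means of 0.318 ± 0.00463 in AA and 0.166 ± 0.0185 in vehicle (SD, n = 2 each). The change was 0.82 ± 0.16 (SE, limma adjusted p = 0.00146). At Sfrp5 (chr19:42198526-42204371) the scores were 0.271 and 0.266 in AA, against 0.146 and 0.126 in vehicle. The groups did not overlap, and the change was 0.84 ± 0.21 (SE, limma adjusted p = 0.0271). A smaller peak of 733 bp (chr19:42197270-42198002) lies mostly beyond the far end of the Sfrp5 span, at 42197971. It scored 0.267 and 0.187 in AA, against 0.0288 and 0.0327 in vehicle (2.01 ± 0.58, SE, limma adjusted p = 0.0941).

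The Sp5 peak (chr2:70468513-70474110) ended 813 bp before the start and entered the set through the 1000 bp extension. It scored 0.368 and 0.354 in AA, against 0.256 and 0.265 in vehicle, again without overlap (0.42 ± 0.11, SE, limma adjusted p = 0.0354). Before the authors' scaling its coverage was 3.90 and 4.63 in AA, against 4.41 and 3.27 in vehicle, and there the groups overlapped. At Notum it was 3.40 and 4.11 in AA, against 3.09 and 1.89 in vehicle. At Sfrp5 it was 2.87 and 3.48 in AA, against 2.51 and 1.55 in vehicle.

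The other genes did not pass for H3K27me3. Lef1 carried a broad peak of 15448 bp over its start (chr3:131104615-131120062), at 0.328 and 0.311 in AA, against 0.252 and 0.305 in vehicle (0.18 ± 0.11, SE, limma adjusted p = 0.641). Wif1 had a start peak of 9731 bp, at 0.267 and 0.259 in AA, against 0.187 and 0.196 in vehicle (0.40 ± 0.16, SE, limma adjusted p = 0.385). Dkk3 scored 0.294 and 0.239 in AA, against 0.203 and 0.198 in vehicle, at its strongest peak (chr7:112156702-112159791; 0.36 ± 0.16, SE, limma adjusted p = 0.448). At these start peaks of Lef1, Wif1 and Dkk3 both AA libraries were above both vehicle libraries. The strongest Nkd1 peak overlapped between groups (0.15 ± 0.20, SE), as did the 1 peak of Axin2. The Lef1, Wif1 and Nkd1 peaks also covered annotated lncRNA genes.

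All 3 H3K27me3 calls were in level class 10, the strongest, where 4.48% were called higher and the median change was 0.23. They ended in each of the 4 limma fits without 1 library, with adjusted p from 0.214 to 0.374 at Notum, 0.341 to 0.590 at Sfrp5 and 0.281 to 0.590 at Sp5. The changes in those fits were 0.72 to 0.91 at Notum, 0.75 to 0.93 at Sfrp5 and 0.40 to 0.45 at Sp5. They also ended after centring, which moves all H3K27me3 changes down by 0.11, with changes of 0.71, 0.73 and 0.31. With 1 value per gene, Notum (0.68, limma adjusted p = 0.0484) and Sfrp5 (0.93, limma adjusted p = 0.0484) passed among 0.622% of genes called higher, and Sp5 did not (adjusted p = 0.0598). These values hold the called peaks, which make up 6062 of 8829 bp at Notum, 5846 of 6579 bp at Sfrp5 and the only peak at Sp5. They are therefore not separate support. None of the 4 MACS2 peaks was called, where 0.0547% of the H3K27me3 peaks of that caller were higher and 0.492% lower.

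Notum and Sfrp5 were the 2 genes of the set called for both marks, with less H3K4me3 and more H3K27me3 over nearly the same DNA. They were 2 of the 5 genes of the set with start peaks of both marks. Among all 4636 genes with both, 21 (0.453%) were called in these directions. The H3K27me3 peak covered 100% of the H3K4me3 peak at Lef1, Sfrp5 and the Wif1 start, 97.08% at Nkd1 and 40.5% at Sp5. At Lef1, H3K4me3 fell and the H3K27me3 change was 0.18 ± 0.11 (SE), and at Sp5 H3K27me3 rose and the H3K4me3 change was -0.03 ± 0.23 (SE). The marks were measured in separate libraries, so both marks on the same DNA and each mark in different cells cannot be told apart.

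**Figure D3:**
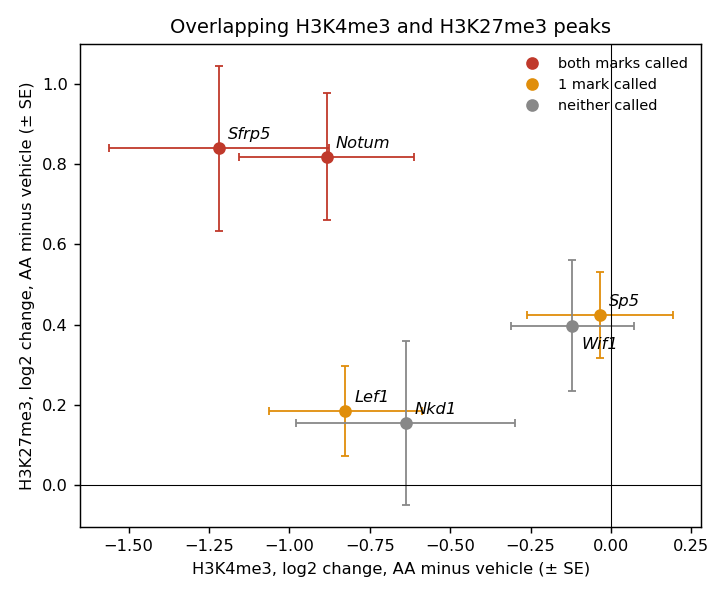
Log2 change of H3K4me3 (x axis) and of H3K27me3 (y axis), AA minus vehicle, for the most strongly overlapping pair of peaks at 6 genes, with SE from limma (2 libraries per group and mark). Sfrp5 and Notum lie at upper left, called for both marks; Lef1 and Sp5 were called for 1 mark; the Axin2 pair, which shared 7.04% of its H3K4me3 peak, is not drawn.

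**Figure D4:**
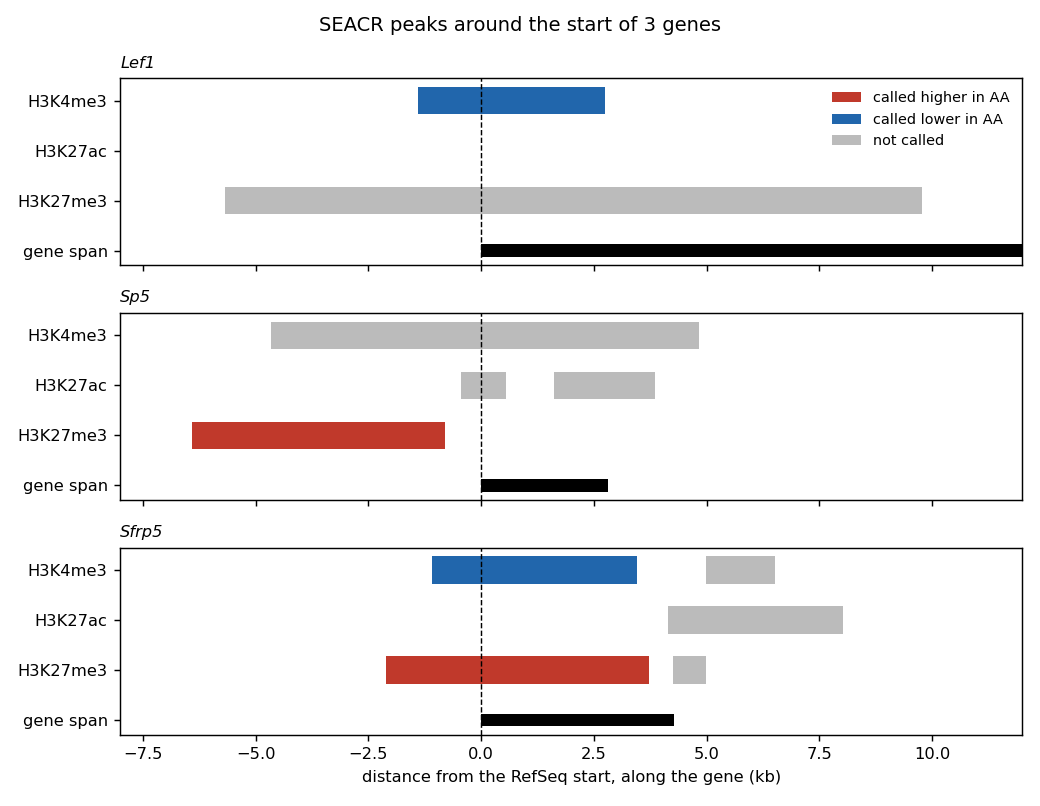
SEACR peaks of the 3 marks by distance from the RefSeq start (kb, along the gene) at Lef1, Sp5 and Sfrp5; red bars were called higher in AA, blue bars lower, grey bars not called, and the black bar is the gene span. At Sfrp5 the called H3K27me3 peak covered the called H3K4me3 peak, at Sp5 the H3K27me3 peak ended before the start, and Lef1 had no H3K27ac peak.

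No H3K27ac peak of these genes was called. There were 11 peaks at 5 genes, with 0 called higher, where 0.155% of all H3K27ac peaks were, and 0 lower, where 0.0448% were. In limma 1 of the 11 had an unadjusted p under 0.05, against 4821 of all 62547, and with 1 value per gene 0 genes of the whole table were called. Both AA libraries lay above both vehicle libraries at 3 peaks (28.5% of all peaks) and below them at 4 (10.7%). The median change was -0.17, against 0.11 over all peaks.

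**Figure D5:**
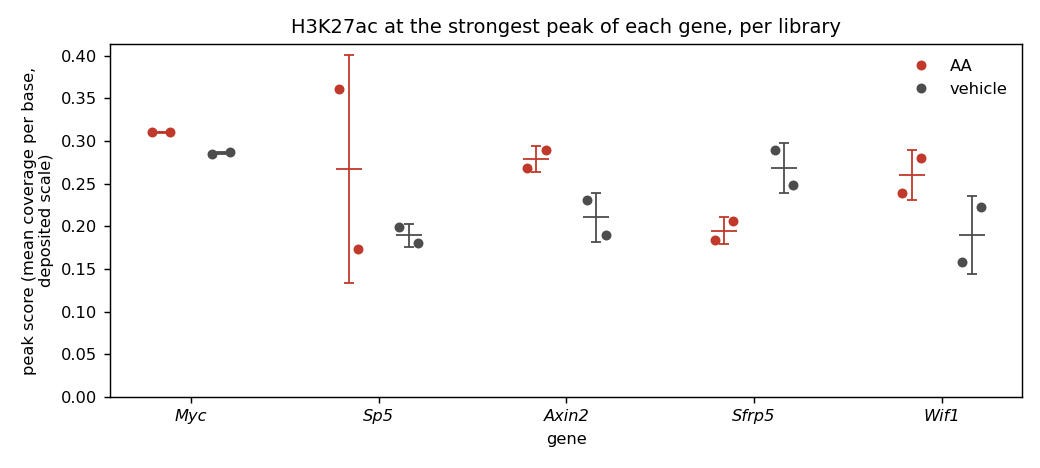
H3K27ac score (mean coverage per base on the deposited scale) at the strongest peak of the 5 genes that had one; points are libraries, and bars the mean ± SD of 2 AA (red) and 2 vehicle (grey) libraries. AA library 1 of Sp5, at 0.361, is apart from the other 3, which lie between 0.173 and 0.199. The Sfrp5 peak lies mostly beyond the far end of the gene.

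Myc had H3K27ac of 0.310 and 0.310 in AA, against 0.285 and 0.287 in vehicle, across its start (0.09 ± 0.18, SE, limma adjusted p = 0.900). At the Sp5 start the values were 0.361 and 0.173 in AA, against 0.199 and 0.180 in vehicle, and the groups overlapped (0.32 ± 0.24, SE, limma adjusted p = 0.783). The Axin2 start also overlapped, at 0.204 and 0.232 in AA, against 0.337 and 0.187 in vehicle (-0.17 ± 0.23, SE). Its strongest peak, 4441 bp into the gene, scored 0.268 and 0.289 in AA, against 0.231 and 0.190 in vehicle (0.32 ± 0.22, SE, limma adjusted p = 0.764). The 1 peak at an unadjusted p under 0.05 lay 25918 bp from the Axin2 start, at 0.117 and 0.157 in AA, against 0.237 and 0.265 in vehicle (-0.64 ± 0.28, SE, limma adjusted p = 0.540).

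Wif1 start H3K27ac was 0.130 and 0.132 in AA, against 0.268 and 0.199 in vehicle (-0.58 ± 0.30, SE, limma adjusted p = 0.650). A Wif1 peak 24115 bp into the gene had the opposite sign, at 0.239 and 0.280 in AA, against 0.158 and 0.222 in vehicle (0.35 ± 0.24, SE). The Sfrp5 peak (chr19:42194229-42198112), 4140 bp from the start and also over Zfyve27, lies mostly beyond the far end of the Sfrp5 span, at 42197971. It scored 0.184 and 0.206 in AA, against 0.290 and 0.248 in vehicle (-0.35 ± 0.23, SE, limma adjusted p = 0.751).

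Just outside the 1000 bp extension, 12 further SEACR peaks lay within 5000 bp of these genes, and none was called. The nearest were an H3K4me3 peak 1413 bp from Wif1 (-0.68), one 1546 bp from Sfrp5 (-1.23) and one 1663 bp from Lef1, at 0.0940 and 0.106 in AA, against 0.266 and 0.222 in vehicle (-1.10). Just inside, SEACR peaks that entered through the extension alone were the Sp5 H3K27me3 peak, 2 weak H3K27me3 peaks of Dkk3 and 1 H3K4me3 peak each of Axin2 and Sfrp5. Of the MACS2 peaks, 7 for H3K4me3 (at Myc, Tcf7, Nkd1, Notum and Sp5) and 3 for H3K27me3 (at Lef1, Nkd1 and Notum) entered that way, the 2 called Myc peaks among them.

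The rest of the Wnt pathway, a list of 94 ligands, receptors, cytoplasmic and nuclear components, inhibitors and targets, was read at the strongest start peak. For H3K4me3, 84 were measured, 3 were called higher, where 5.43% of all genes with a start peak were, and 2 lower, where 1.23% were. The median change was 0.00, against 0.20 over all start peaks. Cd44, a crypt surface receptor and Wnt target, scored 1.03 and 0.996 in AA, against 0.680 and 0.640 in vehicle (0.60, limma adjusted p = 0.0191). Porcn, which encodes the enzyme that adds the lipid to Wnt proteins, was also higher (0.56, limma adjusted p = 0.0371), as was Gsk3b, the kinase gene of the destruction complex (0.39, limma adjusted p = 0.0383). All 3 peaks were in level class 10, in which 10.4% of SEACR H3K4me3 peaks were called higher. Ror1, a receptor gene for non-canonical Wnts, was lower (-1.28, limma adjusted p = 0.0171), as was the secreted inhibitor gene Sostdc1 (-1.29, limma adjusted p = 0.0253). Both were in level class 7, in which 3.79% were called lower.

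For H3K27ac, 52 of the 94 were measured and 1 was called higher, the Frizzled receptor gene Fzd6 (0.83, limma adjusted p = 0.0139), where 0.244% of all genes with a start peak were. For H3K27me3, 54 were measured and 2 were called higher, where 3.06% of all genes with a start peak were. These were the ligand genes Wnt16 (0.58, limma adjusted p = 0.0166) and Wnt9b (0.73, limma adjusted p = 0.0410). Among the 12 measured inhibitors of the rest of the pathway the H3K4me3 median was -0.50 with 1 called, and the H3K27me3 median was 0.17 with 0 called. The H3K4me3 median was also negative for ligands and secretion (-0.34), and between 0.08 and 0.26 for the other lists. Inhibitors and ligands had weak H3K4me3 start peaks, with median scores of 0.265 and 0.229, against 0.7215 over all start peaks. Over all SEACR H3K4me3 peaks in level classes 7 and 8 the median changes were -0.26 and -0.21. The part of level was not tested.

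Markers of other cell types were read beside these genes. Of all genes with a start peak, 5.43% were called higher and 1.23% lower for H3K4me3. For H3K27ac 0.244% were called higher, and for H3K27me3 3.06%. The median changes over all start peaks were 0.20 for H3K4me3, 0.15 for H3K27ac and 0.15 for H3K27me3. The 4 crypt stem cell markers Lgr5, Olfm4, Ascl2 and Smoc2 all had H3K4me3 start peaks, with a summed score of 2.84 and 2.37 in AA, against 3.03 and 3.06 in vehicle, and 0 of 4 called. Their summed H3K27me3 was 0.508 and 0.656 in AA, against 0.347 and 0.320 in vehicle, also with 0 of 4 called. Their summed H3K27ac was 1.19 and 1.17 in AA, against 1.04 and 1.03 in vehicle, with 0 of 4 called. At Ascl2 the H3K4me3 groups overlapped. H3K4me3 at the 3 Paneth markers Lyz1, Mmp7 and Defa24 summed to 0.490 and 0.5785 in AA, against 0.393 and 0.476 in vehicle, with 0 called. These markers differed in direction. Mmp7, also a Wnt target, scored 0.243 and 0.330 in AA, against 0.101 and 0.189 in vehicle. Lyz1 was lower in both AA libraries, at 0.158 and 0.114, against 0.198 and 0.175 in vehicle, and Defa24 overlapped. At the 4 enterocyte markers Alpi, Fabp1, Apoa1 and Sis it summed to 1.45 and 1.22 in AA, against 1.315 and 1.42 in vehicle, with 0 called. Of the 9 fibroblast markers, 6 had an H3K27me3 start peak, with sums of 1.73 and 1.43 in AA, against 1.17 and 1.27 in vehicle, and 1, Vim, was called higher. The 3 with an H3K4me3 start peak summed to 1.16 and 0.765 in AA, against 1.18 and 1.49 in vehicle. H3K27me3 at the 4 blood cell markers with a start peak summed to 0.8745 and 0.687 in AA, against 0.526 and 0.530 in vehicle. At the 4 endothelial and glial markers with one the sums overlapped, at 0.768 and 0.668 in AA, against 0.713 and 0.740 in vehicle. The part of cell makeup in the results above was not tested.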

How the data were processed

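CUT&RUN peak scores of 12 libraries were used, for H3K4me3, H3K27ac and H3K27me3. The deposited table gives the authors' peak score per library, a signal (coverage) value; SEACR, MACS2 and build mm10 are named in the submitters' processing notes, and the sources used here give neither their versions nor the normalization. Multiplied by length, 99.99 to 100% of scores under 1000 steps fell within 0.1 step of whole numbers of a library's own step, so score over step was read as raw coverage. Rows named Control were read as the vehicle libraries. The depth of sequencing is not known. Peaks were joined to RefSeq gene spans by position. For each mark limma 3.58.1 (R 4.3.3, trend and robust) was fitted over all peaks to log2(score + pseudocount), AA minus vehicle, with Benjamini-Hochberg adjustment. The pseudocount was the percentile 5 of positive values: 0.0253 for H3K4me3, 0.0694 for H3K27ac and 0.0329 for H3K27me3, so changes of weak peaks are understated. Values are given for the strongest start peak, the strongest peak and called peaks of each gene. Members and lists were chosen with earlier results of these data known.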

Additional observations from a re-analysis of the deposited data

How the results depend on the processing

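At 0.05 the deposited scaling gave 1710 called H3K4me3 peaks (904 higher, 806 lower), 125 H3K27ac peaks (97 and 28) and 574 H3K27me3 peaks (524 and 50), of which 3, 0 and 3 were at the Wnt genes. Without 1 library each, where the lone library of a group is assumed to vary like the other group, the counts ran from 32 to 8903, from 0 to 120 and from 44 to 90, and at the Wnt genes from 0 to 8 for H3K4me3 and from 0 to 0 for H3K27me3. Centring gave 6106 H3K4me3 peaks (5557 higher, 549 lower) and 79 H3K27me3 peaks (47 and 32), with 2 H3K4me3 calls at the Wnt genes (Myc higher, Sfrp5 lower) and 0 H3K27me3 calls. Quantile normalization gave 980 higher and 1388 lower H3K4me3 peaks, 53 and 42 H3K27ac peaks, and 164 H3K27me3 peaks (84 and 80) with 0 at the Wnt genes. Limma without trend and robust called 0 peaks for each mark. A threshold of 0.01 left 540, 54 and 253 peaks, with 0 H3K4me3 and 1 H3K27me3 at the Wnt genes. MACS2 peaks gave 0 H3K27ac and 10 H3K27me3 calls, 0 of them at the Wnt genes. The upper 75% of peaks gave 0 H3K27ac and 1136 H3K27me3 calls. The larger pseudocount left 1 H3K27me3 call at the Wnt genes, and 1 value per gene gave 0 H3K27ac and 74 H3K27me3 calls.

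Signs turned, with no call, at Sp5 (0.179) and Wif1 (0.0937) for H3K4me3 after centring, and at Tcf7 in its strongest MACS2 start peak (0.51). That peak scored 1.42 and 0.547 in AA, against 0.592 and 0.568 in vehicle. The other Tcf7 MACS2 start peaks kept the sign (-0.12 and -0.18). Without AA replicate 2, signs turned at Sp5 and Tcf7. Their H3K4me3 changes without 1 library each ran from -0.158 to 0.0893 and from -0.665 to 0.121. For H3K27ac signs turned at Myc with quantile normalization (-0.0236), at Sp5 without AA replicate 1 (range without 1 library -0.0945 to 0.736) and at Axin2 without Vehicle replicate 1 (range -0.501 to 0.166). For H3K27me3 the Lef1 sign turned with quantile normalization (-0.0456). Quantile normalization added Axin2 H3K4me3 (-0.43, limma adjusted p = 0.0102) to the calls. The causes were not tested. Deviations of same-numbered libraries correlated at -0.0023, 0.0085 and 0.0025 for H3K4me3, H3K27ac and H3K27me3. With so few fragments in most peaks, such low values cannot decide whether same-numbered libraries belong together. The replicate block gave 280 H3K27ac peaks, 2522 H3K4me3 peaks and 857 H3K27me3 peaks. It added Myc H3K4me3 (0.43, limma adjusted p = 0.0211) to the calls at the Wnt genes. With few fragments per weak peak and 2 libraries per group, small differences were not detectable.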
